A study of Mus musculus with 19 samples.

Results

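The giant sarcomere scaffold genes examined here are Ttn, Neb, Nebl and Speg, 4 of the 21000 protein-coding genes with a curated RefSeq model on the mm10 (GRCm38) mouse genome. They were taken by name, and the peaks counted for each were those overlapping its gene span in 8 lists of regions enriched for 5-hydroxymethylcytosine (5-hmC), obtained by immunoprecipitation of genomic DNA with an antibody against 5-hmC followed by sequencing (hMeDIP). The DNA came from cardiomyocytes (CMCs) of C57BL/6J mice at 4 points, each with 2 biological replicates: the embryonic stage E14.5, neonatal pups 1 to 2 days old, male adults 2 months old, and male adults in which transverse aortic constriction (TAC), a surgical narrowing that overloads the heart, had been in place for 1 week. E14.5 and neonatal CMCs were isolated from whole ventricles and adult CMCs from the left ventricle, so isolation and age cannot be told apart between those points. All 4 points share the C57BL/6J background, and the preparations were enriched for CMCs.

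Titin, the product of Ttn, spans from the Z-disc to the M-band of the sarcomere and acts as its molecular spring and ruler. Nebulin (Neb) lies along the thin filament of skeletal muscle, whereas the shorter nebulette (Nebl) is its cardiac relative at the Z-disc, and SPEG is a kinase of the myosin light chain kinase family needed for the membrane junctions that couple excitation to contraction. 5-hmC is made from 5-methylcytosine by TET enzymes, lies mostly at CpG dinucleotides, and is known to be abundant over the gene bodies (GB) of genes that are active in differentiated cells.

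The lists held between 104215 and 153637 peaks and covered 2.71% to 4.89% of the known autosomal bases. They give positions without read counts, so the depth behind a peak is unknown and a stretch without a peak is a stretch not called, not a stretch shown to lack the mark. TAC replicate 2 stood apart: it had the lowest coverage, and peaks of 501 bp in TAC replicate 1 that had a 501 bp neighbour within 1 kb in replicate 2 lay a median of 550 bp from it, against 60 to 118 bp between the replicates of the other points. Most TAC values are therefore given for each replicate, and a mean of the TAC pair joins 2 unlike lists. Cardiomyocyte markers had a median coverage of 28.6% of the gene at E14.5, then 31.4% (neonatal), 10.6% (adult) and 8.56% (TAC), with Pln at 0 throughout. The 8 fibroblast markers stayed between medians of 0.869% and 2.20%, with Tcf21 at 0 throughout. The highest among them were Col1a1 at E14.5, with a mean of 12.9%, and Vim in the adult pair, with 6.62%. The 7 endothelial markers had medians of 11.4%, 7.11%, 5.89% and 4.91% in the order of the points, led by Eng and Pecam1. The 10 skeletal muscle markers had medians of 8.93%, 3.41%, 1.47% and 0.642%. Of these, Ckm and Tnni2 lay far above the medians. Ckm had means of 37.1%, 65.2%, 47.9% and 38.5%, and Tnni2 had 21.8%, 75.5%, 56.9% and 56.9%, in the same order. The part of other cells in the values below was not tested.

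The sequences that carried the most recurrent 5-hmC in Speg, Ttn and Neb are shown first. They are the central 240 bases of the intervals held by the most lists, and of the longest Ttn interval in each of 2 chosen patterns across the points. All are written 5′ to 3′ in the direction of the gene, from the mm10 reference genome (RefSeq copy of GRCm38.p6), with each CpG in capitals. In Speg, 3 intervals were shared by all 8 lists, and the 2 of them that hold no untranslated bases are shown. The first lies in a coding exon and is dense in CpGs, and the second lies in an intron of the longest transcript, shortly before the start of a shorter transcript.
Speg, coding exon, chr1:75388342-75388581, plus strand: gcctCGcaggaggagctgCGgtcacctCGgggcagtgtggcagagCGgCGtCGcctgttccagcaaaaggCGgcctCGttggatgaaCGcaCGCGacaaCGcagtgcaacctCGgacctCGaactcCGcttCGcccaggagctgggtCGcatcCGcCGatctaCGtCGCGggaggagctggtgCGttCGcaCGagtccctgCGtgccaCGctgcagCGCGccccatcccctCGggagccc
Speg, intron, chr1:75385216-75385455, plus strand: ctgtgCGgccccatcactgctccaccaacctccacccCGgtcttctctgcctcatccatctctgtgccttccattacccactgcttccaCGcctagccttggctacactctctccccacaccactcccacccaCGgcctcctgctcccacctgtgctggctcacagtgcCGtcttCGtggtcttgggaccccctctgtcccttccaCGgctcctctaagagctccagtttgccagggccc

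In Ttn no base was covered in all 8 lists. The 2 longest intervals in 7 lists lie 43.8 kb and 29.5 kb after the transcription start site (TSS), each across an exon and its intron. They are followed by the centre of a 2280 bp interval that both neonatal and both adult lists held and no E14.5 list did, in coding sequence near the end of the gene, and by the centre of a 1430 bp intronic interval held by both neonatal lists and by no E14.5 or adult list.
Ttn, in 7 lists, chr2:76938672-76938911, minus strand: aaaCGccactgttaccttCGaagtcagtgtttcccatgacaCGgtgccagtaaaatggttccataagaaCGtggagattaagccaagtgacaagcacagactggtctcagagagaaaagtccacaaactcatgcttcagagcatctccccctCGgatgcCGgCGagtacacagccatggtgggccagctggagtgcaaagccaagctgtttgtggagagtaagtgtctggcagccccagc
Ttn, in 7 lists, chr2:76952882-76953121, minus strand: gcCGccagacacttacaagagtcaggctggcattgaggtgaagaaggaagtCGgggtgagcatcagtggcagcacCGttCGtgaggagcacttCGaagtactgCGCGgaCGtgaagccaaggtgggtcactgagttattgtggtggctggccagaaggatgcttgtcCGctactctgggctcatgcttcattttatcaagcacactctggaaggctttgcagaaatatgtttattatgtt
Ttn, neonatal and adult, chr2:76712233-76712472, minus strand: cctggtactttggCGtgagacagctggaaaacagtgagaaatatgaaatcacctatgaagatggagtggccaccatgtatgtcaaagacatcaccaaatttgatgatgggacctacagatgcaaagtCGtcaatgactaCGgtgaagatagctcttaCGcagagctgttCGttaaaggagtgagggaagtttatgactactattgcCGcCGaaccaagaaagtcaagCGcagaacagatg
Ttn, neonatal, chr2:76917647-76917886, minus strand: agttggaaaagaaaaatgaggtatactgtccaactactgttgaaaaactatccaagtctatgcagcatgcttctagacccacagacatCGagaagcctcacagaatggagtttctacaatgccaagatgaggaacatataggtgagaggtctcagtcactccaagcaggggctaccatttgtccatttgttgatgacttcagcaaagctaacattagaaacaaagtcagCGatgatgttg

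In Neb the interval in the most lists, 6 of 8, lies wholly in coding sequence 126 kb after the TSS.
Neb, coding exon, chr2:52212528-52212767, minus strand: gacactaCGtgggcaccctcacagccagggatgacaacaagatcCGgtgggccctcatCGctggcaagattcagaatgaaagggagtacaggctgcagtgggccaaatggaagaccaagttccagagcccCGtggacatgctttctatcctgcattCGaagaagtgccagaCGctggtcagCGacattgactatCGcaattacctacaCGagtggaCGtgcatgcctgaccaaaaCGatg

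The exonic Speg sequence holds 30 CpGs in 240 bases and the exonic Neb sequence 11. The Ttn sequence found in neonatal lists alone holds 2 CpGs, against 7 and 9 in the Ttn sequences found in 7 lists and 8 in the sequence shared by neonatal and adult lists.

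The first question was how much of each gene carried the mark, and how that differed between the points. Ttn was the member whose coverage differed most between points. It was covered over 14.2% and 5.75% of its span at E14.5, over 43.1% and 42.4% in the neonatal pair, over 27.1% and 28.1% in adult CMCs, and over 29.0% and 7.27% after TAC. Both neonatal values lay above all the others, both adult values lay above both E14.5 values, and the 2 TAC values lay on either side of the adult values. In kilobases, neonatal lists marked 119.9 kb and 118.0 kb of the 278.6 kb gene, where E14.5 lists marked 39.5 kb and 16.0 kb.

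**Figure D1:**
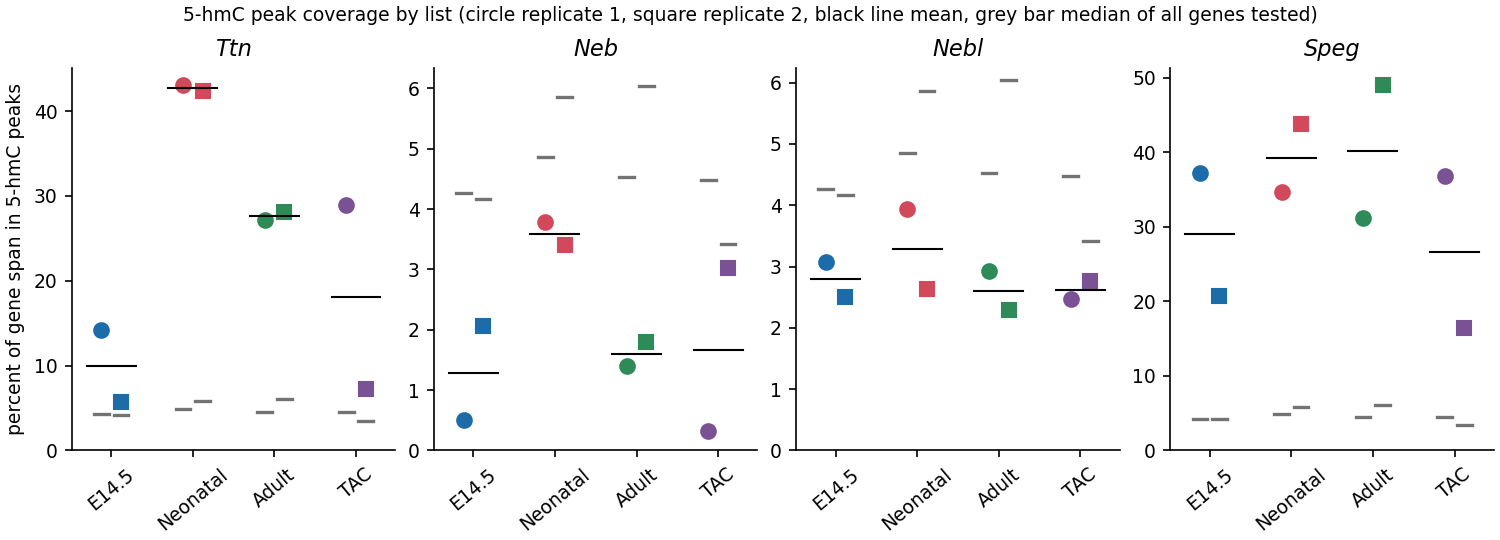
Percent of the span of each gene that lay in 5-hmC peaks (y axis, a separate scale for each gene) at the 4 points (x axis), with a circle for replicate 1, a square for replicate 2, a black line for their mean and a short grey bar for the median of all genes tested in the same list. Ttn reached 43.1% and 42.4% in neonatal CMCs, Speg lay above the grey bars in every list, and Neb and Nebl lay below them in every list.

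The mean coverage of Ttn was 9.96% ± 5.96 (SD, n = 2) at E14.5, 42.7% ± 0.486 in the neonatal pair, 27.6% ± 0.657 in the adult pair and 18.1% ± 15.3 in TAC CMCs, a 4.29-fold difference between the first and second of these points. In an exact permutation test over the 105 divisions of the 8 lists into 4 pairs, 7 divisions gave a separation of the points at least as large (one-sided p = 0.0667, where the smallest possible is 0.00952). The same test gave larger p on other measures of Ttn. It gave 0.257 with coverage scaled to the genome coverage of each list, 0.248 with peak centres per 100 kb and 0.133 with peaks widened by 500 bp. In limma fitted across 14386 genes, the neonatal minus E14.5 difference was 2.11 ± 0.69 (SE) on the log2(percent + 1) scale, with an adjusted p of 0.602. The adult minus neonatal difference was -0.61 ± 0.69 and the adult minus E14.5 difference was 1.5 ± 0.69, with adjusted p of 0.764 and 0.326. No Ttn contrast therefore passed the threshold, and the spread shared in that fit includes the gap between the TAC replicates: without TAC replicate 2 the SE was 0.43 and the adjusted p of the first contrast 0.259. In a preparation of many cells, a wider mark in each CMC and a larger share of cells carrying it cannot be told apart.

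Across all genes the calls were few. The limma threshold was passed by 12 genes (0.0834%) for neonatal minus E14.5, 105 (0.730%) for adult minus neonatal, 47 (0.327%) for TAC minus adult and 144 (1.0%) for adult minus E14.5, and by none of the 4 members in any contrast, although Ttn had an unadjusted p under 0.05 for neonatal minus E14.5. Absence of overlap between replicates was common: both neonatal lists lay above both E14.5 lists for 27.1% of the genes and below for 6.74%. Ttn and Neb were among the former, with Neb at 0.496% and 2.06% at E14.5 against 3.78% and 3.41% in neonatal CMCs. Both adult lists lay below both neonatal lists for 22.7% of genes, again including Ttn and Neb, and above for 16.4%. Both adult lists lay above both E14.5 lists for 29.8% of genes, including Ttn, and below for 19.0%. Both TAC lists lay below both adult lists for 24.7% of genes and above for 6.28%, and no member was in either set.

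The TAC comparison of Ttn turned on the replicate. TAC replicate 1 differed from the adult mean by 1.34 percentage points and TAC replicate 2 by -20.3. On the log2 scale TAC minus adult was -0.86 ± 0.69 (adjusted p = 0.743) with both replicates, and 0.07 ± 0.53 (adjusted p = 1) without replicate 2. Widening every peak by 500 bp at each side, which allows for a displaced list, left mean coverages of 49.5% ± 0.133 in the adult pair and 34.0% ± 21.9 in TAC CMCs. The widened value was 49.4% in TAC replicate 1 and 18.5% in TAC replicate 2.

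Relative to other genes, Ttn stood near the middle to upper range at E14.5 and nearer the top afterwards, except in TAC replicate 2. Among the 14386 genes it ranked 1806 and 5635 at E14.5, 139 and 298 in the neonatal pair, 713 and 1312 in the adult pair, and 572 and 3258 in the TAC pair. Among the 2313 genes of at least 100 kb, its neonatal ranks were 6 and 18. The median of all genes tested lay between 3.41% and 6.05% in the 8 lists, and Ttn exceeded the median of its own list in each of them. Neonatal lists were also among the longest, so coverage was also divided by the share of the autosomal genome each list covers. This scale keeps the percent unit at the mean list coverage. On it Ttn had means of 9.81 ± 6.24 at E14.5, 35.8 ± 5.42 in the neonatal pair and 28.6 ± 4.22 in the adult pair. In TAC CMCs the mean was 22.1 ± 17.2, with 34.3 in replicate 1 and 9.91 in replicate 2. The neonatal values, 39.7 and 32.0, then no longer both lay above all the others.

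The neonatal mark on Ttn included wide domains. The peak listed first of the 137172 in neonatal replicate 1 lay in Ttn, at chr2:76733968-76753701, and at 19.7 kb was the second widest of that list. It was 94.5% exonic. Ttn held 4 and 8 peaks of at least 4 kb in the neonatal lists, 2 and 2 in the adult lists, 2 and 0 after TAC and none at E14.5. Each whole list held between 8, in TAC replicate 2, and 870, in neonatal replicate 2, peaks of that width. Counted by number, Ttn held, at E14.5, 50 and 27 peaks, 73 and 59 in the neonatal pair, 68 and 64 in the adult pair, and 62 and 32 in the TAC pair. Neonatal and adult numbers were thus close, and peak centres per 100 kb had the same mean of 23.7 at both points.

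The widest neonatal peak lay over the longest exon, exon 275 of the 313 of the N2-A transcript, which runs over 17106 bp and encodes residues 20714 to 26415 within the A-band part of titin. It was covered over 17.7% and 13.6% at E14.5, 100% and 88.4% in the neonatal pair, 57.8% and 38.6% in the adult pair, and 34.1% and 5.86% in the TAC pair. No list other than the neonatal pair covered more than 57.8% of it.

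**Figure D2:**
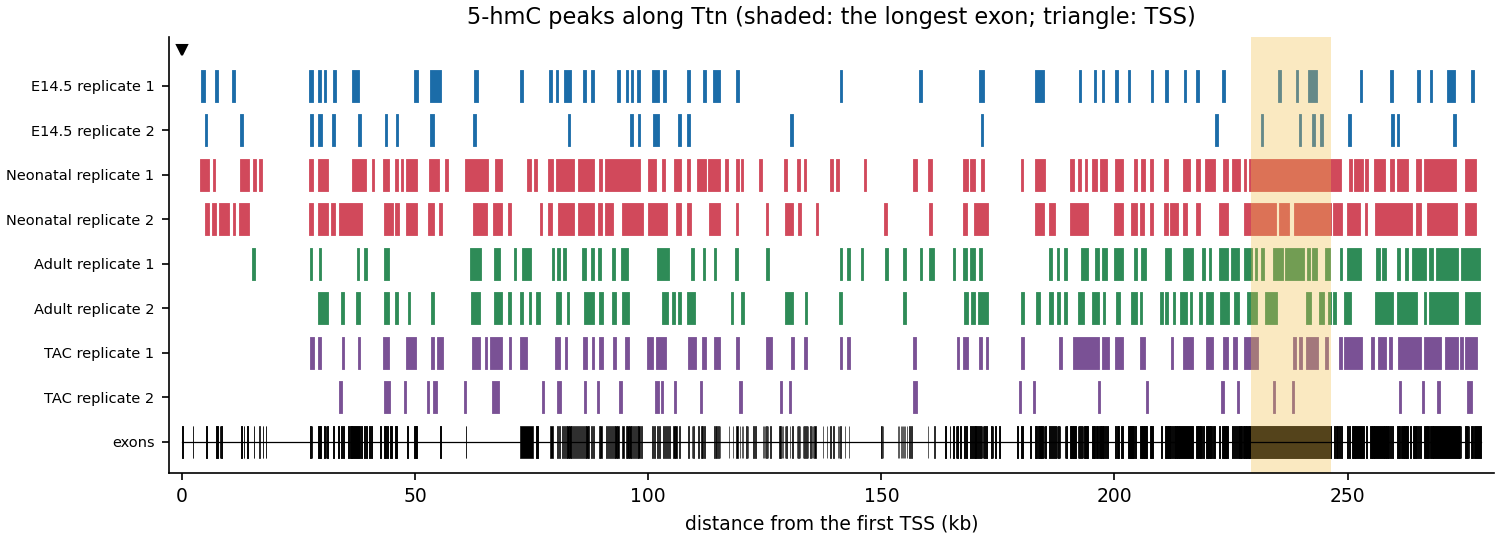
Peaks of each of the 8 lists (rows) along Ttn against distance from the TSS in kb (x axis), with exons in the bottom row and the longest exon shaded. Neonatal peaks fill nearly all of the shaded exon, and adult and TAC replicate 1 peaks crowd toward the end of the gene and are nearly absent near its start.

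The second question was where along the gene the mark lay. Titin residues follow gene order from the Z-disc end to the M-band end, so 10 segments of equal length, counted from the TSS, run from Z-disc through I-band to A-band and M-band coding sequence. In segment 1 of Ttn, lists covered 9.07% and 5.16% at E14.5, 22.6% and 26.1% in the neonatal pair, 3.48% and 0% in the adult pair, and 1.46% and 0% in TAC CMCs. In segment 10 they covered 17.6% and 6.06% at E14.5, 65.4% and 71.5% in the neonatal pair, 64.0% and 64.8% in the adult pair, and 70.4% and 9.53% in TAC CMCs. The adult and neonatal lists thus had like values at the end of the gene while the adult values at its beginning lay below those of E14.5. Segment 6, which holds few exons, had the lowest value in both E14.5 and both neonatal lists, between 0% and 10%.

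**Figure D3:**
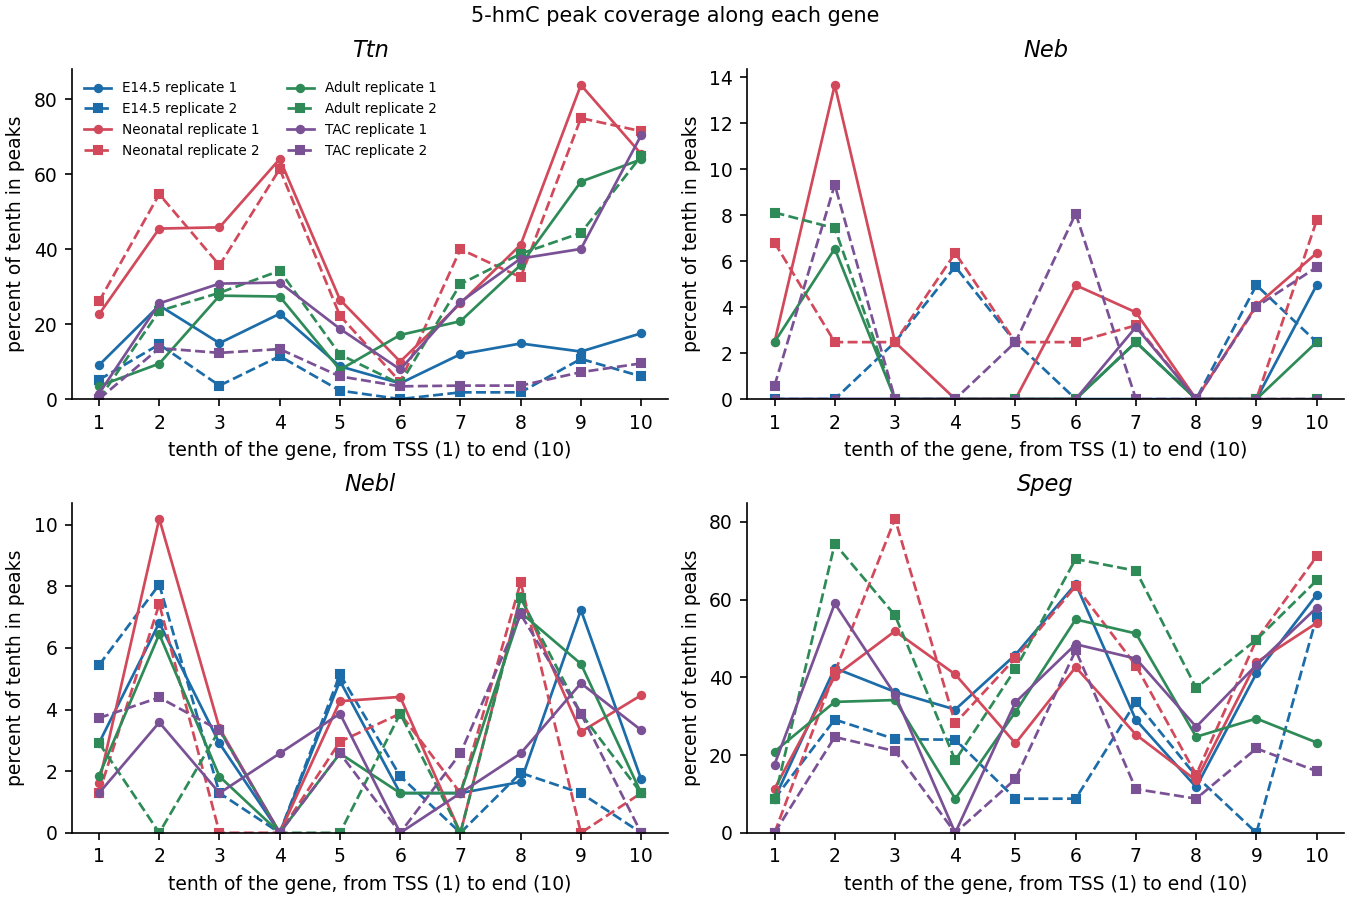
Percent of each of 10 equal segments of the gene in 5-hmC peaks (y axis, a separate scale for each gene) from the TSS (1) to the end (10), with solid lines and circles for replicate 1 and dashed lines and squares for replicate 2. Segment 10 of Ttn lies at 64.0% and 64.8% in adult lists and 65.4% and 71.5% in neonatal lists, whereas segment 1 lies at 3.48% and 0% against 22.6% and 26.1%.

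Split by transcript structure, the N2-A transcript of Ttn holds exons 47 to 167, a run of 121 spring exons in the I-band region, that the cardiac N2-B transcript leaves out. That stretch of 82.5 kb was covered over 15.1% and 5.24% at E14.5, 38.9% and 34.0% in the neonatal pair, 19.2% and 18.7% in the adult pair, and 20.8% and 8.75% in the TAC pair. From its end to the end of the gene, 117.1 kb, the values were 13.6% and 4.85%, 51.4% and 52.1%, 42.9% and 42.5%, and 41.8% and 5.69% in the same order. The excess of neonatal over adult coverage was therefore larger in the alternatively used stretch and before it than in the constant end.

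The mean position of marked bases, on a scale from 0 at the TSS to 1 at the end, was 0.470 ± 0.0197 at E14.5, 0.555 ± 0.00220 in the neonatal pair, 0.653 ± 0.0226 in the adult pair and 0.554 ± 0.104 in TAC CMCs (SD, n = 2). It was 0.627 in TAC replicate 1 and 0.480 in TAC replicate 2. E14.5, neonatal and adult values did not overlap with each other. Such a later position without overlap was found for 14.4% of the 7235 genes with peaks in all lists between E14.5 and neonatal, 23.5% between neonatal and adult, and 21.7% between E14.5 and adult. In limma over those genes, adult minus E14.5 was 0.182 ± 0.0677 with an adjusted p of 0.461. No gene was called in the neonatal minus E14.5, adult minus neonatal, TAC minus adult or adult minus E14.5 contrast of position (0% in each). In the same order, 270, 491, 414 and 711 of the 7235 genes had an unadjusted p under 0.05.

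Exons of Ttn, which make up 37.4% of its span, were marked more than introns in 7 of the 8 lists. Exon bases were covered over 22.9% and 8.87% at E14.5, 68.5% and 66.7% in the neonatal pair, 49.1% and 47.9% in the adult pair, and 46.8% and 6.18% in the TAC pair. Intron bases were covered over 8.94% and 3.87%, 27.8% and 27.8%, 14% and 16.2%, and 18.3% and 7.91% in the same order. TAC replicate 2 was the exception in which introns had the higher value. Marked bases also held more CpGs than the gene, with 2.09 to 2.56 CpGs per 100 bp of peak against 1.44 over the whole gene, except in TAC replicate 2 with 1.39. In neonatal lists 62.5% and 62.1% of all 4018 CpGs of Ttn lay in peaks.

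**Figure D4:**
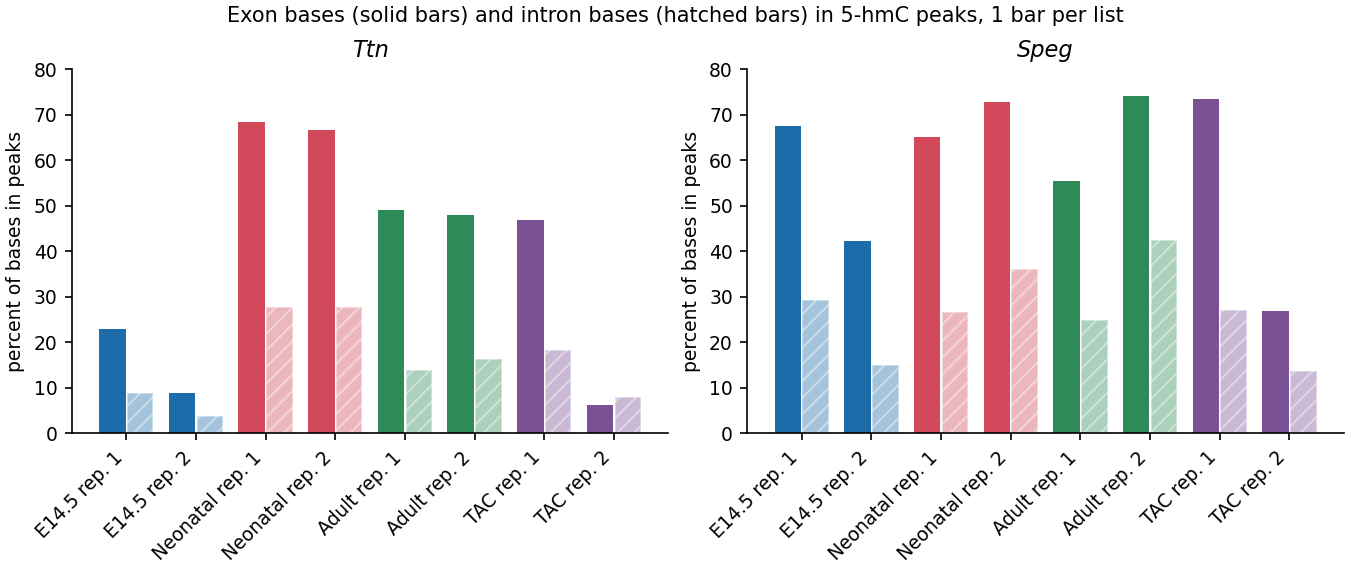
Percent of exon bases (solid bars) and intron bases (hatched bars) of Ttn and Speg that lay in 5-hmC peaks (y axis), with 1 pair of bars for each list. Exon bars exceed intron bars in every list but TAC replicate 2 of Ttn, where the values were 6.18% and 7.91%.

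Across the 10 segments of Ttn, coverage followed CpG density with a Pearson r of 0.884 and 0.925 in the neonatal lists and 0.866 and 0.886 in the adult lists, and of 0.503 and 0.513 in the E14.5 lists. In the TAC lists it was 0.850 and 0.373, the lowest value being that of replicate 2. The share of exon bases gave r of 0.861 and 0.841, 0.909 and 0.901, and 0.377 and 0.379 in the same order, and 0.837 and 0.240 in the TAC lists. The points of each correlation are neighbouring stretches of 1 gene in 1 list, and CpG density and exon share were not separated, so these are descriptions.

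Replicates marked the same places in Ttn to different degrees. In neonatal CMCs, 71.2% of the peaks of replicate 1 and 81.4% of those of replicate 2 shared at least 1 bp with a peak of the other list, and the common bases made up 0.583 of all bases marked in either list. In adult CMCs the shares were 69.1% and 68.8%, and at E14.5 they were 30.0% and 55.6%. In TAC CMCs they were 33.9% and 68.8%, and the common bases made up 0.0938 of those marked in either list, the lowest of the 4 points. Both neonatal lists and neither E14.5 list covered 19.4% of the gene. Of that, 16.0 kb was also in both adult lists and 18.8 kb was in neither adult list, whereas both adult lists without any E14.5 or neonatal list covered 5.63 kb.

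The 1 kb on each side of the Ttn TSS held no peak in any of the 8 lists, and the Neb TSS and the nebulette TSS of Nebl likewise held none. The 50 kb before the Ttn start, which holds the neighbouring gene Ccdc141, was covered over 2.15% and 5.29% at E14.5, 14.3% and 12.1% in the neonatal pair, 3.01% and 17.5% in the adult pair, and 6.99% and 9.01% in the TAC pair. Ccdc141 itself was covered over 7.70% and 7.39% at E14.5 and over 16.8% and 16.1% in neonatal lists. The 50 kb after the Ttn end, with Pjvk, Fkbp7 and Plekha3, stayed between 3.68% and 6.81% in all 8 lists.

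Speg, the shortest of the 4 genes at 57 kb, was widely marked at every point. Its coverage was 37.2% and 20.7% at E14.5, 34.7% and 43.8% in the neonatal pair, 31.2% and 49.0% in the adult pair, and 36.8% and 16.4% in the TAC pair. The points overlapped, and the replicates of each point differed by more than the means of the neonatal and adult points did. It ranked between 109 and 597 among the 14386 genes in all 8 lists, with 95.9% to 99.2% of genes below it. The permutation test over the 105 divisions gave an exact one-sided p of 0.571, and the limma differences between the points ran from -0.65 to 0.48 (log2, SE 0.52 each, adjusted p from 0.616 to 1).

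The SPEG locus makes a long striated muscle kinase and shorter products from 4 annotated TSSs. The first start was touched in 3 lists, by 1.55% at E14.5 replicate 2 and by 31.8% and 17.7% in neonatal lists of the 2 kb around it, all of it on the upstream side. The third start, that of the transcript for a protein of 2527 residues, was covered in all 8 lists, between 42.8% and 100%, and the first 2 sequences printed above flank it. The second start was covered over 38.7% and 32.8% in the adult pair and 19.8% and 6.5% in the TAC pair, over 18.6% in neonatal replicate 2, and not in the other neonatal list or at E14.5. The fourth start, within the gene, held no peak in any list.

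Exon bases of Speg were covered over 26.9% to 74.0% and intron bases over 13.6% to 42.4%, with exons above introns in every list. Its mean position stayed between 0.510 and 0.555 in all 8 lists. In segment 4, which holds no exon, coverage was 31.7% and 24.0% at E14.5, 40.8% and 28.2% in the neonatal pair, 8.79% and 18.7% in the adult pair and 0% in both TAC lists. Segment 8, in contrast, was covered over 11.8% to 15.0% in the E14.5 and neonatal lists and over 24.7% and 37.3% in the adult lists. In the TAC lists it was covered over 27.3% and 8.79%. Neither segment was tested. Bases covered in all 8 lists amounted to 1050 bp, and this was the only member with any. The neighbouring gene Des, which encodes the intermediate filament protein desmin, lies within 50 kb before the Speg start and had 12.9% to 69.6% of its 8288 bp covered. That whole 50 kb was covered over 8.52% to 22.5%, and the 50 kb after the Speg end over 10.1% to 27.7%. In E14.5 replicate 2 the stretch after the end, at 22.6%, lay above Speg itself, at 20.7%.

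**Figure D5:**
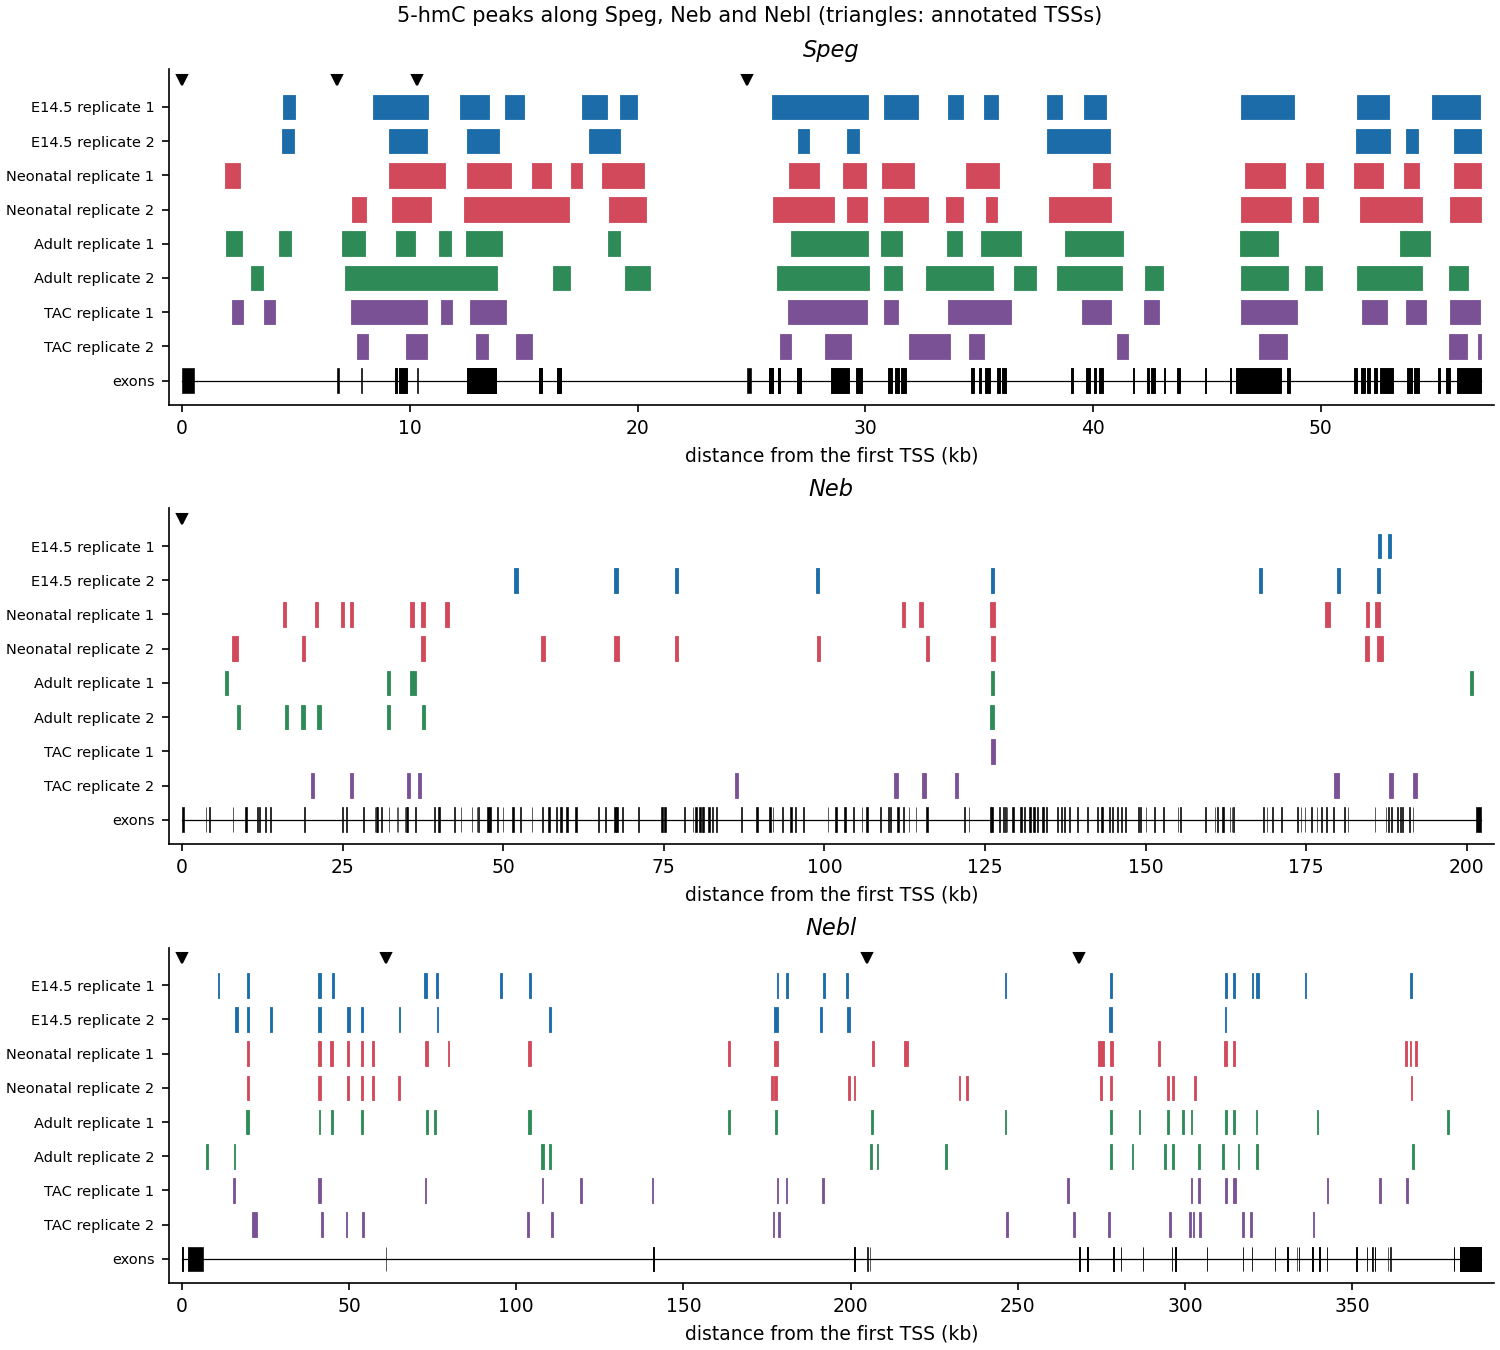
Peaks of each of the 8 lists (rows) along Speg, Neb and Nebl against distance from the first TSS in kb (x axis, a separate scale for each gene), with exons in the bottom row and triangles at annotated TSSs. Speg is marked in every list with a gap around the fourth start, whereas Neb and Nebl hold narrow scattered peaks, among them the Neb exon 126 kb from the TSS that 6 lists share.

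Neb, the skeletal muscle ruler, was sparsely marked. Its 202.2 kb held, at E14.5, 2 and 8 peaks, 13 and 11 in the neonatal pair, 5 and 7 in the adult pair, and 1 and 11 in the TAC pair. Coverage was 0.496% and 2.06%, 3.78% and 3.41%, 1.40% and 1.80%, and 0.314% and 3.02% in the same order, below the median of all genes tested in every list. Among the 2313 genes of at least 100 kb, Neb ranked between 1119 and 2175. It lay above their median in TAC replicate 2 alone, at 3.02% against 2.88%. Neonatal values lay above all the others, but neither the permutation test (exact one-sided p = 0.352) nor limma (neonatal minus E14.5 1.1 ± 0.66, adjusted p = 0.863) called Neb. With coverage scaled to each list, TAC replicate 2 had 4.12, above the neonatal values of 3.48 and 2.57. Its peaks were mostly of the common width, with a median of 501 bp in 7 lists, and none reached 2 kb.

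Few of the Neb peaks recurred. No base was covered in more than 6 lists, 89.0% of the gene was covered in none, and its segment 8 of 10 held no peak at all. The recurrent interval printed above was missing from E14.5 replicate 1 and TAC replicate 2, and it was the only peak of TAC replicate 1 in the gene. The mean position was 0.753 ± 0.244 at E14.5, 0.457 ± 0.000109 in the neonatal pair, 0.277 ± 0.135 in the adult pair and 0.578 ± 0.0647 in TAC CMCs, opposite in order to Ttn up to the adult point. The adult minus E14.5 difference of -0.476 ± 0.122 had an adjusted p of 0.364 in limma, and it rests on 2 to 8 peaks for each list. The exact one-sided permutation test over the 105 divisions gave p = 0.0381 for the position of Neb, 0.190 for Ttn, 0.143 for Nebl and 0.543 for Speg, none of them adjusted for the 4 genes.

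Nebl, which encodes the cardiac nebulette and, from a far upstream start, a short LIM-domain form of 270 residues, was marked at a low level at every point. Its 388.5 kb was covered over 3.08% and 2.50% at E14.5, 3.93% and 2.63% in the neonatal pair, 2.92% and 2.29% in the adult pair, and 2.47% and 2.76% in the TAC pair. All points overlapped, all values lay below the median of all genes tested, and the permutation test gave an exact one-sided p of 0.648. Among the 2313 genes of at least 100 kb, however, Nebl ranked between 1124 and 1527. It lay above their median in neonatal replicate 1 (3.93% against 3.82%) and adult replicate 1 (2.92% against 2.75%). The limma differences between points ran from -0.24 to 0.16 (log2, SE 0.40, adjusted p from 0.873 to 1).

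The nebulette transcript itself, 120.2 kb, was covered over 3.44% and 1.05% at E14.5, 4.99% and 3.05% in the neonatal pair, 4.5% and 4.13% in the adult pair and 3.48% and 3.54% in the TAC pair. The 268.3 kb upstream, used only by the longer-reaching transcripts, was covered over 2.92% and 3.15%, 3.46% and 2.44%, 2.21% and 1.47%, and 2.01% and 2.40%. Upstream coverage exceeded that of the nebulette unit in 1 list, E14.5 replicate 2. In segment 8, which begins just after the nebulette start, coverage was 1.65% and 1.95% at E14.5, 7.69% and 8.13% in the neonatal pair, 7.15% and 7.62% in the adult pair, and 2.58% and 7.09% in the TAC pair. The most upstream start, with 5.10 CpGs per 100 bp the most CpG-rich of the start sites of the 4 genes, was touched in 3 lists, over 11.3% in E14.5 replicate 1 and 7.40% and 4.5% in neonatal lists.

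The content of the peaks varied between the genes. Peaks in Nebl were 26.4% to 40.2% repeat sequence (lower-case bases of the genome file) and held 0.579 to 1.1 CpGs per 100 bp, against 5.92% to 13.7% repeat in Ttn and 7.53% to 12.2% in Speg. Neb peaks were 4.57% to 26.7% repeat and held 0.835 to 2.68 CpGs per 100 bp, which overlaps the 1.39 to 2.56 of Ttn peaks. Speg peaks held 2.71 to 3.37 CpGs per 100 bp. Exon bases of Nebl, 3.79% of its span, were covered over 0% to 1.88%. Over the whole genes the CpG density was 2.10 per 100 bp in Speg, 1.44 in Ttn, 0.956 in Neb and 0.723 in Nebl. Speg and Ttn also had higher mean coverage than Neb and Nebl at every point. The order within those pairs varied. Neonatal mean coverage was higher in Ttn (42.7%) than in Speg (39.2%), and Nebl lay above Neb at E14.5, in the adult pair and after TAC.

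Genes whose coverage over the 8 lists ran most like that of a member were named from 3657 genes of at least 50 kb with peaks in all lists, by Pearson r of log2(percent + 1). Nearest to Ttn were Myom1, whose product myomesin links titin in the M-band (r = 0.992), Akap13 (r = 0.982) and Klf7 (r = 0.975). Myom1 was covered over 12.7% and 9.17% at E14.5, 23.6% and 25.6% in the neonatal pair, 19.0% and 20.4% in the adult pair, and 20.4% and 10.5% in the TAC pair. Nearest to Speg were Bahcc1 (r = 0.993), Nhlrc2 (r = 0.991) and Crtc3 (r = 0.983). Nearest to Neb were Rb1 (r = 0.954), Met (r = 0.947) and Mbd5 (r = 0.929), and nearest to Nebl were Slc4a5 (r = 0.882), Sytl2 (r = 0.875) and Saxo1 (r = 0.869). These values share list length and replicate, and among the members themselves r was 0.817 between Ttn and Speg and between -0.232 and 0.297 for the other pairs.

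Genes whose products bind or regulate the members were chosen with earlier results of these data known. Their comparison with all genes is therefore a description. Of these 45 partners, 41 could be tested. Their neonatal values were mostly above those of E14.5: both neonatal lists lay above both E14.5 lists for 29 of the 41 and below for 0, against 27.1% and 6.74% of all genes, with a median log2 difference of 0.85 against 0.22 over all genes tested. None passed the limma threshold in that contrast, while 10 had an unadjusted p under 0.05, as did 1039 of the 14386 genes. Named by size of difference among those without overlap, Trim63, a ubiquitin ligase at the M-band, had 0% and 13.0% at E14.5 and 13.9% and 20.8% in neonatal lists. Atp2a2, the calcium pump of the sarcoplasmic reticulum, had 10% and 4.97% against 34.9% and 26.4% (log2 difference 1.95 ± 0.42, adjusted p = 0.323).

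Between neonatal and adult CMCs, 23 of the 41 partners lay lower without overlap and 6 higher, against 22.7% and 16.4% of all genes, with a median log2 difference of -0.69 against -0.09 over all genes. In that contrast 2 of the 41 partners passed the limma threshold, as did 0.730% of all genes. Those 2 are named because they did. Fhl2, a LIM-domain protein that binds titin, fell from 36% and 35.2% to 2.16% and 3.91% (log2 difference -3.21 ± 0.35, adjusted p = 0.0351), and Myh6, the alpha myosin heavy chain, fell from 38.3% and 56.5% to 2.03% and 5.65% (-3.41 ± 0.47, adjusted p = 0.05). Of the 41, 1 was called in this contrast without either TAC replicate, and 0 were called without any single E14.5, neonatal or adult replicate, with the replicate block, with coverage scaled to each list or among genes of at least 20 kb. In limma on all 8 lists 10 of the 41 had an unadjusted p under 0.05, as did 1413 of the 14386 genes.

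Among the other partners named for this step, Xirp1, an actin-binding Xin-repeat protein, had 54.1% and 65.0% in neonatal and 1.5% and 4.36% in adult lists (adjusted p = 0.0893). Lmod2, a leiomodin that elongates thin filaments, had 38.4% and 27.9% against 6.55% and 0% (adjusted p = 0.354). In the other direction, Ankrd2, a muscle ankyrin repeat protein, had 5.52% and 0% in neonatal and 23.9% and 17.0% in adult lists, and Flnc, the muscle filamin, had 5.84% and 21.6% against 22.9% and 36.6%, with adjusted p of 0.634 and 0.711. The log2 difference of Ttn over the same step, -0.61, lay near the median of the partners.

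After TAC, 15 of the 41 partners lay below both adult values in both TAC lists and 4 above, against 24.7% and 6.28% of all genes, and none passed the limma threshold, while 4 had an unadjusted p under 0.05, as did 1015 of the 14386 genes. With TAC replicate 1 alone, 17 lay below and 9 above, where 32.6% and 19.6% of all genes did. With replicate 2 alone, 30 lay below and 5 above, where 45.9% and 18.6% of all genes did. Mybpc3, cardiac myosin-binding protein C, had 16.6% and 22.2% in the adult pair and 2.73% and 5.45% in the TAC pair (log2 difference -2.05 ± 0.44, adjusted p = 0.271), and Ankrd2 had 13.6% and 0% in the TAC pair. Myh6 had 9.65% and 8.54% and Xirp1 9.70% and 5.09%, both above their adult values, with adjusted p of 0.699 and 0.743. Between E14.5 and adult CMCs, 16 of the 41 lay higher without overlap and 9 lower, against 29.8% and 19.0% of all genes, and none passed the limma threshold, while 11 had an unadjusted p under 0.05, as did 2523 of the 14386 genes.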

How the data were processed

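hMeDIP was performed on genomic DNA of isolated CMCs, and the authors mapped the reads to mm10 with BWA 0.7.4-r385, removed duplicates with Picard and called peaks with HOMER in its histone mode, as their methods and the submitters' processing notes state. The deposited files are 1 peak list for each sample, with positions and a score that is 1 for every peak, so no stricter score could be set, and replicates were not pooled. Input and sh-control samples were not analysed here, and 1 recurrent interval is not reported here.

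Peak starts were converted from 0-based to 1-based positions. Gene spans were the union of curated RefSeq transcripts on GRCm38.p6, the same assembly as mm10. The percent of each span covered by peaks was tested as log2(percent + 1) with limma 3.58.1 (R 4.3.3, trend on the mean, 4 points as groups, no covariates), over the 14386 genes of at least 5 kb with a peak in at least 2 lists, and called at a Benjamini-Hochberg adjusted p of at most 0.05. Mean position was fitted likewise without the log. Single genes were tested with an exact permutation test. On simulated data, covered bases equalled those of bedtools 2.31.1 in 300 of 300 spans, and limma recovered the size of known changes but called hardly any of the smaller ones with 2 lists for each point. Read depth is unknown. The members, the partner and marker lists and the tests were chosen with earlier results of these data known. Genes named beside the members were, for each, the 3 most alike by Pearson r, the 2 partners with the largest difference in each direction at each step among those without overlap of replicates, and neighbours within 50 kb. Genes called among the partners were named after their values were seen. Alternatives covered pseudocount, filters, scaling, list length, peak width and sharing, gene model, the replicate block and each replicate left out.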

Additional observations from a re-analysis of the deposited data

How the results depend on the processing

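The 4 contrasts are given below in the order neonatal minus E14.5, adult minus neonatal, TAC minus adult and adult minus E14.5. Numbers of genes called were sensitive to the processing, and the cause was not tested. They were 78, 156, 86 and 254 with pseudocount of 0.25 percent, 85, 224, 137 and 280 with genes of any length, 0, 0, 0 and 1 with genes of at least 20 kb, 56, 136, 67 and 172 with no filter on coverage. They were 0, 0, 35 and 132 with coverage scaled to each list's genome coverage, 62, 116, 67 and 187 with same number of peaks in each list, 118, 211, 132 and 298 with peak centres per 100 kb, 102, 152, 41 and 0 with peaks wider than the narrowest. They were 86, 160, 134 and 198 with peaks wider than the median width (chosen after seeing the data), 76, 123, 92 and 179 with the first-listed part of each list, to its middle, 58, 133, 65 and 219 with peaks widened by 500 bp. Keeping only peaks shared by the replicates makes the replicates alike by construction, and the calls were then 5954, 6576, 6391 and 7363 with peaks shared with the other replicate by 1 bp and 7284, 7911, 6749 and 8012 with peaks shared with the other replicate by 50 percent. The 6 samples without TAC gave 0, 156 and 276 for the 3 contrasts without TAC. Leaving out each replicate in turn gave 0 to 0, 0 to 167, 0 to 102 and 0 to 305. No member was called under any alternative other than the shared peaks, where the log2 differences past the threshold were, for Ttn, 2.79 and 2.89 (neonatal minus E14.5), -0.95 (adult minus neonatal), -1.91 (TAC minus adult) and 2.05 and 1.94 (adult minus E14.5). They were 0.90, -0.64, -0.58 and 0.26 for Neb, 0.27, then -0.87 and -0.76, then -0.37, then -0.62 and -0.49 for Nebl in the same order of contrasts, and -1.53 for TAC minus adult of Speg.

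Several directions turned, among them that of Ttn for adult minus neonatal (-0.61 as reported) and for TAC minus adult (-0.86 as reported). Adult minus neonatal became 0.00690 for Ttn with peak centres and 0.10 for Nebl with the same number of peaks, and for Speg -0.0928, -0.0548, -0.0353, -0.0496, -0.11, -0.18 and -0.00380 with centres, peaks wider than the narrowest, wider than the median, first-listed, shared by 1 bp, shared by 50 percent and widened peaks. TAC minus adult became 0.00625, 0.27 and 0.25 for Neb with scaling, wider than the median and first-listed peaks, and -0.0573, -0.37, -0.18, -0.37 and -0.0448 for Nebl with centres, wider than the narrowest, both kinds of shared and widened peaks. Adult minus E14.5 became -0.13 for Neb with first-listed peaks, and 0.19, 0.11 and 0.0404 for Nebl with the same number, centres and widened peaks. The mean position of Speg, neonatal minus E14.5, became 0.0345 with centres and 0.00963 with widened peaks. With each replicate left out, the ranges that crossed 0 were -0.0596 to 0.38 for Nebl neonatal minus E14.5, -0.31 to 0.32 for Speg adult minus neonatal, -1.79 to 0.0664, -0.98 to 0.63 and -0.12 to 0.13 for TAC minus adult of Ttn, Neb and Nebl, -0.24 to 0.79 and -0.20 to 0.0538 for adult minus E14.5 of Neb and Nebl, and -0.0248 to 0.00635 and -0.0289 to 0.00267 for the position of Speg in the first 2 contrasts. For Ttn the upper end was the fit without TAC replicate 2.

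The replicate numbers were not treated as pairs, and whether they pair the samples was not tested. Deviations of same-numbered lists from their point means correlated by 0.00825 to 0.243 between points. The highest value was that of E14.5 with neonatal. With the replicate block, 0, 0, 0 and 0 genes were called and no call of a member changed.

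The lists hold neither read counts nor input signal, so what depth limits could not be assessed.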
